A study of Mus musculus with 12 samples.

Results

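The genes examined here encode the transcription factor NF-kB and the proteins that restrain it. They are the 5 subunits Nfkb1, Nfkb2, Rel, Rela and Relb and the 5 feedback inhibitors Nfkbia, Nfkbib, Nfkbie, Nfkbiz and Tnfaip3, chosen by gene symbol from the 41709 genes of the count tables. All 10 passed the filter on low counts, as did 13752 genes in all. They were measured by RNA-seq in bone marrow-derived dendritic cells (BMDCs), which are grown from mouse bone marrow with the growth factor GM-CSF. The mice were homozygous for a floxed CD18 gene (Itgb2, the shared chain of the β2 integrins). Control mice lacked Cre recombinase (CD18fl/fl, Cre-), whereas CD18ΔCD11c mice carried Cre under control of CD11c (conditional knockout, cKO, Cre+), so that deletion was limited to cells that had used the CD11c promoter. BMDCs of day 10 were left unstimulated or were treated with 100 ng/mL LPS, a bacterial ligand of TLR4, and MHCII-positive cells were lysed. The labels give 24 h of LPS, while the study's methods describe overnight treatment. Each of the 4 groups had 3 libraries, and the sources used here do not say whether these came from separate mice, nor the age or sex of the mice. The p-values below measure the spread between libraries, which may be technical in part.

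In resting cells, NF-kB dimers are held in the cytoplasm by IkB proteins. Signaling from TLR4 activates the IKK kinases, which mark the IkB proteins for degradation, so that the dimers enter the nucleus and switch on inflammatory genes. Among these targets are genes for the inhibitors themselves and for several subunits, which makes the pathway a textbook case of negative feedback. In dendritic cells, Rela and Rel drive the early response to microbial ligands, and Relb with the processed form of Nfkb2 is known for its part in dendritic cell maturation.

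The feedback loop runs through kB sites in promoters, so the sequences before the start of the members were searched for them. RefSeq promoter windows (GRCm38.p6), which reach from 250 bases before to 50 bases after a gene's start, were at hand for 7 of the 10 members in 10 windows, and each window matched GRCm39 once. Nfkb1, Relb and Nfkbiz had none. On both strands, the 10-base kB consensus was found in 7 of the 10 windows and in 5 of the 7 genes (Nfkb2, Rel, Nfkbia, Nfkbie and Tnfaip3). Of all 32851 windows in the table, 4.51% held it, and of all 27025 genes, 5.14%. The stricter form GGGANTTTCC was found in 3 windows of the members (Nfkb2 and Nfkbia), and in 0.411% of all windows. Overlapping matches were counted as 1 site, and the stricter form is contained in the consensus. The windows of Rela and Nfkbib held neither. A match describes letters only and does not show binding. As several members are known targets of NF-kB, their share is no independent finding, and it was not tested against that of all genes.

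For the 3 members whose RefSeq start lies at the start of the gene as annotated in the files, the 250 bases before the RefSeq start are shown in GRCm39 coordinates, in 5′ to 3′ direction of the gene, with kB consensus matches in capitals. They show that Nfkbia, Rel and Nfkbie each carried 1 match, which began 29, 92 and 106 bases before the start.
Nfkbia, chr12:55539433-55539682, minus strand: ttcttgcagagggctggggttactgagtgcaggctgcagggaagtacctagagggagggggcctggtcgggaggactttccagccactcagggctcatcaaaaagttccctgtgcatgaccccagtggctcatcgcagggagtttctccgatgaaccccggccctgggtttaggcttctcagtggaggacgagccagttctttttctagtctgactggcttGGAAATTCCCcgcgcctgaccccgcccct
Rel, chr11:23720970-23721219, minus strand: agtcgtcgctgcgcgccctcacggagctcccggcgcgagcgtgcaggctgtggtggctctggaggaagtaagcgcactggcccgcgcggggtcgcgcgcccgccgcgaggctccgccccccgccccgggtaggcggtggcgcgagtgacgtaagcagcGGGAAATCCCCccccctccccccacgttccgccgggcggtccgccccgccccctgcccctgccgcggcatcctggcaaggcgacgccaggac
Nfkbie, chr17:45866376-45866625, plus strand: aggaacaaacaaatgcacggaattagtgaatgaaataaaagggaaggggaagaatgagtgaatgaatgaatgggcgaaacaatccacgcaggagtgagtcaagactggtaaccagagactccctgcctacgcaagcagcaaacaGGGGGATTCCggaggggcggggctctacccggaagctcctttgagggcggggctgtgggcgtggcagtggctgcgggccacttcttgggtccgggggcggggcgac

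Nfkb2 has 3 RefSeq starts and Tnfaip3 has 2, all of which lie inside the gene as annotated in the files, so only the matches with their neighbouring bases are shown. They let the spacing and the letters of the sites be compared with those above. Nfkb2 had 2 matches in the window of its first start (39 and 11 bases before it), and the windows of its other starts, which overlap, shared 1 match to the stricter form (11 bases after the second start and 225 bases before the third). A further match lay 236 bases before the second start. Tnfaip3 had 2 matches in the window of its upstream start, 125 and 12 bases before it.
Nfkb2, chr19:46293127-46293155, plus strand: ggatcgtcacGGGAATTCCCCccctcggg
Nfkb2, chr19:46293155-46293184, plus strand: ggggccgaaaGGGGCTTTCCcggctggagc
Nfkb2, chr19:46293888-46293917, plus strand: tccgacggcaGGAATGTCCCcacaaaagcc
Nfkb2, chr19:46294134-46294163, plus strand: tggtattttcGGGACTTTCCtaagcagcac
Tnfaip3, chr10:18891264-18891293, minus strand: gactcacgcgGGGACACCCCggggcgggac
Tnfaip3, chr10:18891151-18891180, minus strand: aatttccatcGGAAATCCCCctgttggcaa

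Each library held between 29689149 and 34037178 reads in genes, and the members had between 119 and 30564 reads in a library. Levels are given as CPM, that is read counts scaled to the depth of the library after TMM normalization over the 12 libraries, and 3 reads corresponded to between 0.0752 and 0.135 CPM, which covers counting error only. Itgb2, the targeted gene, amounted to 394 ± 23.0 CPM (SD, n = 3) in unstimulated CD18fl/fl and 158 ± 34.8 CPM (SD, n = 3) in unstimulated cKO BMDCs, and after LPS to 202 ± 56.2 and 108 ± 15.6 CPM (SD, n = 3). Its reads cover the whole gene and not only the floxed exon 3. The log2 fold change between genotypes in edgeR was -1.26 (adjusted p = 0.0887) in unstimulated BMDCs, or -1.29 (adjusted p = 0.00392) once the replicate number entered the fit as a block, and after LPS it was -0.93 (adjusted p = 0.428), or -0.91 (adjusted p = 0.0201) when blocked. All 16 listed dendritic cell markers passed the filter and were found in every group. Their summed level ranged from 17784 to 50649 CPM over the libraries, with replicate 3 lowest in each group. Highest among them in every group was H2-Ab1, a gene of MHCII, on which the cells had been selected. In unstimulated CD18fl/fl BMDCs it had 5855 ± 1080 CPM, against 279 ± 152 for Itgax and 22.9 ± 3.21 for Zbtb46 (SD, n = 3). The sum thus mainly follows the most abundant markers, and its order of replicates need not hold for each marker. The summed level of 13 macrophage and monocyte markers ranged from 2139 to 3069 CPM in unstimulated and from 1822 to 2327 CPM in LPS-treated CD18fl/fl BMDCs, and from 2647 to 2804 CPM and from 1418 to 1474 CPM in cKO BMDCs. For 9 T and NK cell markers (8 passing the filter) it ranged from 11.4 to 37.9 CPM without and from 3.95 to 8.22 CPM with LPS in CD18fl/fl, and from 4.34 to 38.2 CPM and from 4.35 to 7.53 CPM in cKO BMDCs, where Trac, Ncr1 and Klrb1c were at 0 after LPS. For 6 erythroid markers (3 passing the filter) it was 15.0 and 23.6 CPM in replicate 3 of the unstimulated and the LPS-treated cKO group and at most 2.35 CPM in every other library. The highest macrophage and monocyte marker was Adgre1 (CD18fl/fl) or C1qb (cKO) without LPS and Cd14 after it. Taken singly, 5 of these 13 fell and 0 rose with LPS in CD18fl/fl, and 4 fell and 0 rose in cKO BMDCs (edgeR). Of all genes, 1.83% and 1.76% fell. When blocked, 6 fell and 0 rose in CD18fl/fl, and 6 fell and 2 rose in cKO BMDCs, beside 6.43% and 9.93% of all genes that fell.

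Replicate 3 of every group stood apart from replicates 1 and 2, and the members shared in this. In the unstimulated groups, replicate 3 was the lowest library in both genotypes for 8 of the 10 members (all but Nfkb1 and Nfkbiz), where 27% of all genes showed this order. The summed level of the dendritic cell markers, of which H2-Ab1 was the highest, was 17784 CPM in unstimulated CD18fl/fl replicate 3, against 27689 and 27939.8 CPM in replicates 1 and 2, and 22439.6 against 38693 and 27322 CPM in unstimulated cKO BMDCs. After LPS it was 18291 against 39406 and 50649 CPM in CD18fl/fl, and 23470.3 against 32426 and 30766 CPM in cKO BMDCs. The summed level of 7 B cell markers (6 of which passed the filter, with Igkc at 0 in every group) was 3.07 CPM in unstimulated CD18fl/fl replicate 3 and 130 and 421 CPM in replicates 1 and 2. In unstimulated cKO BMDCs it was 1.82 CPM in replicate 3 and 270 and 347 CPM in the other libraries. After LPS, the range was 3.58 to 57.0 CPM in CD18fl/fl and 1.94 to 73.7 CPM in cKO BMDCs, again with replicate 3 lowest. Mast cell and basophil markers (8 listed, 6 passing the filter, Cma1 at 0 in 3 groups) went the other way, with 165 CPM in unstimulated cKO replicate 3 and 37.4 and 43.4 CPM in replicates 1 and 2, and with 86.6 against 43.9 and 52.1 CPM in the unstimulated CD18fl/fl group. After LPS, their highest library was also replicate 3, at 41.0 CPM in CD18fl/fl and 115 CPM in cKO BMDCs. Neutrophil markers (14 listed, 11 passing the filter) were lower after LPS without overlap in CD18fl/fl BMDCs, whereas the cKO groups overlapped. Their summed level ranged from 161 to 1720 CPM in unstimulated and from 83.8 to 115 CPM in LPS-treated CD18fl/fl BMDCs, and from 110 to 446 CPM and from 64.9 to 114 CPM in cKO BMDCs, where Elane, Mpo, Retnlg and Cxcr2 were at 0 after LPS. The part of these cell types, erythroid and T and NK cells included, in the results below was not tested, and in bulk samples fewer cells of a type and less RNA per cell cannot be told apart. Each result is therefore also given from the fit with this block, and for replicates 1 and 2 alone where that changes it.

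Levels of different genes were compared as RPKM, that is exon reads scaled to exon length and depth. On this scale, Nfkbia was the highest member in every group. Its level was 185 ± 46.1 in unstimulated and 403 ± 66.6 in LPS-treated CD18fl/fl BMDCs, and 150 ± 40.2 and 332 ± 81.4 RPKM in cKO BMDCs (SD, n = 3). In each group its lowest library lay above the highest library of the next member. That next member was Relb in the unstimulated groups, with 59.7 ± 39.7 (CD18fl/fl) and 41.6 ± 24.9 (cKO), and Nfkbib in the LPS-treated groups, with 88.0 ± 39.6 (CD18fl/fl) and 61.2 ± 23.3 (cKO) RPKM (SD, n = 3). From rank 2 to rank 9, neighbours overlapped in every group. Nfkbiz was the lowest member in every group, at 1.83 ± 0.190 and 0.933 ± 0.360 in unstimulated CD18fl/fl and cKO BMDCs, below all libraries of Rel as the next one up. After LPS, Nfkbiz (9.22 ± 10.7 and 6.91 ± 7.84) overlapped with its neighbour.

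**Figure D1:**
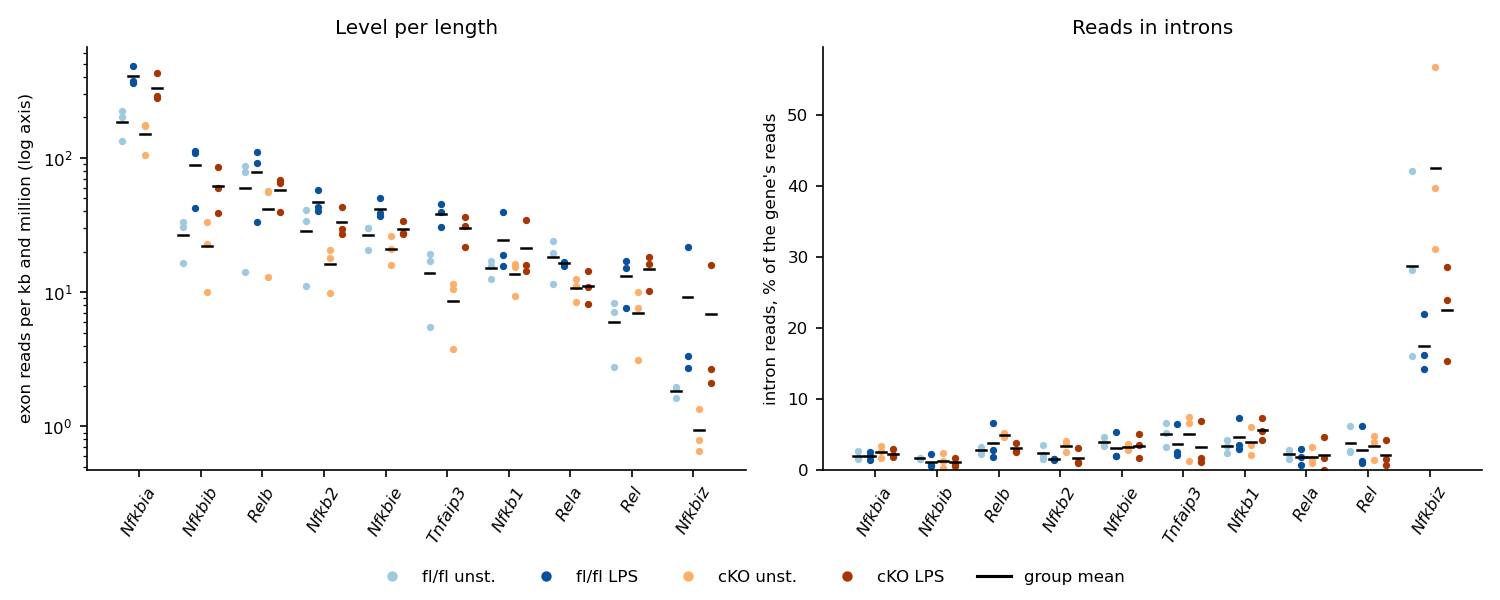
Left, RPKM of exon reads on a log axis, and right, reads in introns as a percentage of the reads of the gene, for the 10 members in the 12 libraries (points, coloured by group) with group means (black lines). Nfkbia is highest in every group (means from 150 to 403), and Nfkbiz has the highest intron share of the 10 members (means from 17.5% to 42.6%).

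Nfkbiz, which encodes the nuclear inhibitor and co-regulator IkB-zeta, also differed in where its reads fell. Intron reads made up 28.8 ± 13.05% of its reads in unstimulated and 17.5 ± 3.99% in LPS-treated CD18fl/fl BMDCs, and 42.6 ± 13.1% and 22.6 ± 6.72% in cKO BMDCs (SD, n = 3). The group means of the other 9 members lay between 1.04% and 5.69%, and the share over all genes was between 1.91% and 4.54% in a library. The 3 LPS-treated cKO libraries (15.3% to 28.6%) lay below the 3 unstimulated ones (31.1% to 56.8%), whereas the CD18fl/fl groups overlapped. With 3 libraries against 3 the exact permutation test (two-sided) cannot go below p = 0.1, and it gave p = 0.1 in cKO and p = 0.3 in CD18fl/fl BMDCs. These shares rest on between 119 and 474 reads in the libraries other than LPS-treated replicate 3.

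The first question was how LPS changed the members in either genotype. All 5 inhibitors had higher levels in all 3 LPS-treated than in all 3 unstimulated libraries, in CD18fl/fl and in cKO BMDCs. Among the subunits this was so for Nfkb2 and Rel in cKO BMDCs and for none in CD18fl/fl BMDCs. That makes 5 of 10 members with groups that did not overlap in CD18fl/fl, where 13.6% of all genes tested were higher without overlap, and 7 of 10 in cKO BMDCs, where 14.8% were. The edgeR test without the block called 0 of the 10 members in either genotype, with 6 members at an unadjusted p under 0.05 in each, as were 23.8% of all genes in CD18fl/fl and 21.2% in cKO BMDCs. It called 2.06% of all genes as higher in CD18fl/fl and 2.23% in cKO BMDCs. With the replicate block, Rel, Nfkbib and Tnfaip3 rose in both genotypes (3 of 10 members, against 6.33% of all genes in CD18fl/fl and 10.2% in cKO BMDCs). DESeq2 without the block called Nfkbia, Nfkbib, Nfkbiz and Tnfaip3 as higher in both genotypes (4 of 10 members, against 8.49% and 6.75% of all genes). For replicates 1 and 2 alone, where 5 members rose and 1 fell in CD18fl/fl BMDCs and 3 rose in cKO BMDCs, 23.2% of all genes rose and 24.3% fell in CD18fl/fl, and 7.93% rose in cKO BMDCs. The median log2 fold change without the block was 0.70 for the subunits and 1.45 for the inhibitors in CD18fl/fl BMDCs, and 0.67 and 1.43 in cKO BMDCs. Over all genes tested, the medians were -0.02 and -0.01.

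**Figure D2:**
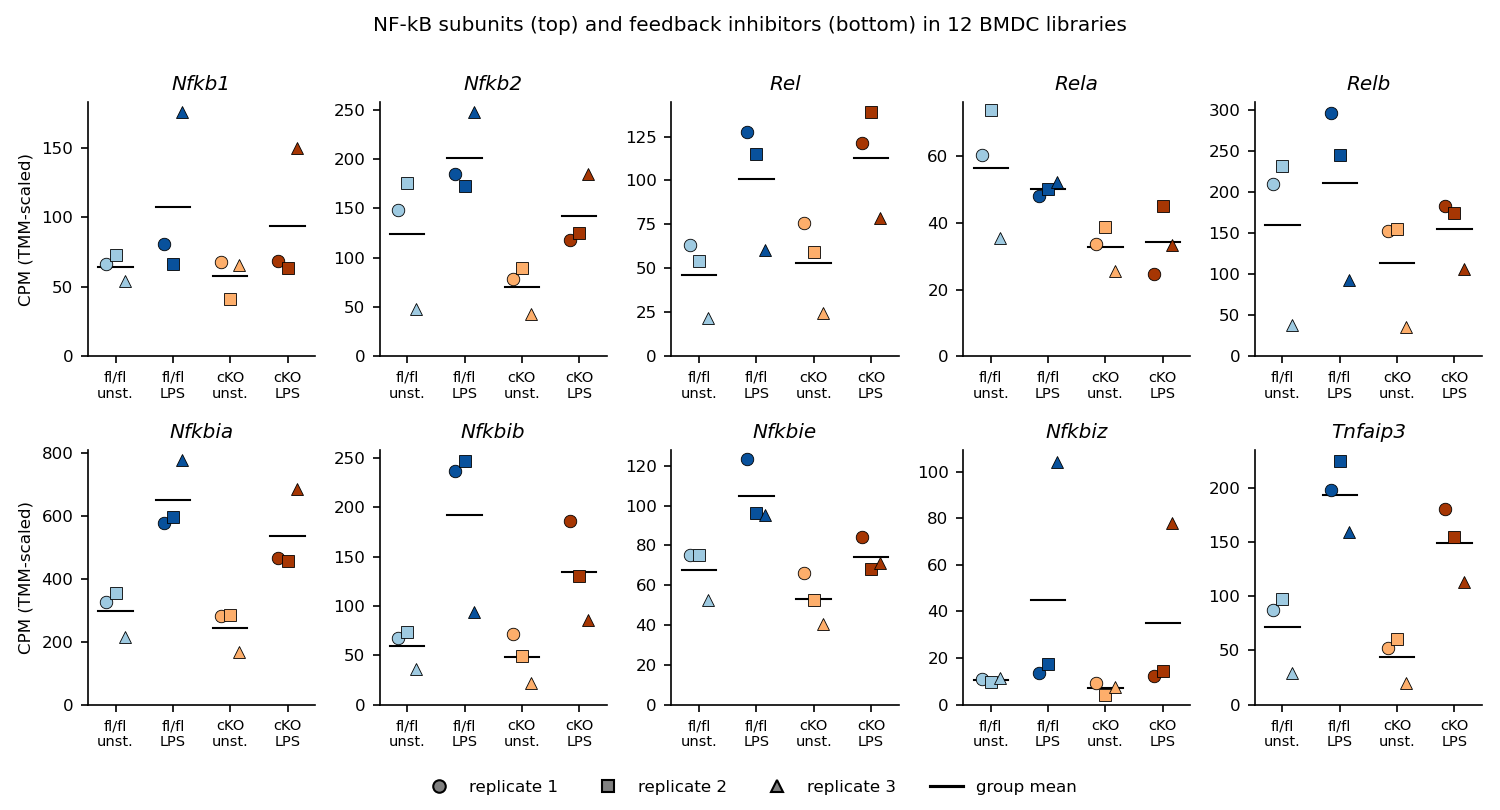
CPM of the 5 subunits (top) and the 5 inhibitors (bottom) in each of the 12 libraries, with group on the x axis, symbols for the replicate number and black lines for the group means. All inhibitors sit higher in the LPS-treated than in the unstimulated libraries of the same genotype, and replicate 3 (triangles) is low for Relb (35.4 CPM in unstimulated cKO BMDCs) and high for Nfkbiz after LPS (104 and 78.0 CPM).

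Among the subunits, Rel, the c-Rel protein of lymphoid and myeloid cells, was the one that rose with the block. It amounted to 63.3, 54.3 and 22 CPM in unstimulated CD18fl/fl BMDCs (replicates 1, 2 and 3) and to 128, 115 and 60.3 CPM after LPS. In cKO BMDCs it was 75.7, 59.6 and 24.7 CPM before and 121, 139 and 78.8 CPM after LPS. Replicate 3 was the lowest library of each group, which made the CD18fl/fl groups overlap, but every LPS-treated library exceeded the unstimulated library of its number, by 2.01, 2.11 and 2.73-fold in CD18fl/fl and by 1.60, 2.32 and 3.19-fold in cKO BMDCs. The log2 fold change was 1.12 (SE 0.46, edgeR adjusted p = 0.202) in CD18fl/fl and 1.03 (SE 0.42, adjusted p = 0.219) in cKO BMDCs without the block. With the block it was 1.19 (SE 0.22, adjusted p = 0.0239) and 1.14 (SE 0.24, adjusted p = 0.0182).

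Nfkb1 and Nfkb2 encode the precursors that are processed to the subunits without a transactivation domain. Nfkb1 was at 66.4, 73.1 and 54.3 CPM in unstimulated CD18fl/fl BMDCs and at 80.7, 66.6 and 176 CPM after LPS. Its levels in cKO BMDCs were 67.9, 41.0 and 65.4 CPM without and 68.3, 63.8 and 150 CPM with LPS. Thus replicate 3 alone was well above its unstimulated partner, 3.24-fold in CD18fl/fl and 2.29-fold in cKO BMDCs, while the other pairs differed between 0.911 and 1.56-fold. Nfkb2 amounted to 148, 176 and 48.1 CPM without and 184, 172 and 247 CPM with LPS in CD18fl/fl BMDCs, and to 78.8, 89.3 and 42.9 CPM and 118, 125 and 185 CPM in cKO BMDCs. Its replicate 3 was the lowest library of each unstimulated group and the highest of each LPS-treated group, with ratios of 5.13 and 4.29, against ratios between 0.981 and 1.49 in the other pairs. Neither gene passed the edgeR test in either genotype, without the block (log2 fold changes between 0.67 and 0.98, adjusted p between 0.171 and 0.408) or with it (0.57 to 0.99, adjusted p between 0.0934 and 0.322). For replicates 1 and 2 alone, the log2 fold change was 0.08 for Nfkb1 and 0.14 for Nfkb2 in CD18fl/fl, and 0.18 and 0.42 in cKO BMDCs.

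Relb, the partner of the processed Nfkb2 protein in dendritic cells, did not pass the test in either genotype. Unstimulated CD18fl/fl BMDCs had 210, 232 and 37.9 CPM and LPS-treated ones 296, 245 and 92.7 CPM. In cKO BMDCs the values were 153, 154 and 35.4 CPM and 183, 174 and 106 CPM. Replicate 3 was far below the others in each group, and its ratio of LPS to unstimulated was 2.44 in CD18fl/fl and 3.00 in cKO BMDCs, compared with 1.06 to 1.41 in the other pairs. The test gave log2 fold changes of 0.40 (SE 0.70, edgeR adjusted p = 0.764) and 0.38 (SE 0.53, adjusted p = 0.735), and with the block of 0.62 (SE 0.29, adjusted p = 0.197) and 0.62 (SE 0.32, adjusted p = 0.217). Rela, which encodes the main transactivating subunit, was the only subunit with no higher mean after LPS in CD18fl/fl BMDCs. It was at 60.2, 73.7 and 35.5 CPM without and 48.0, 50.2 and 52.2 CPM with LPS in CD18fl/fl, and at 33.8, 38.7 and 25.7 CPM and 24.5, 45.0 and 33.5 CPM in cKO BMDCs. The groups overlapped in both genotypes, with log2 fold changes of -0.17 (SE 0.30, edgeR adjusted p = 0.773) and 0.02 (SE 0.30, adjusted p = 0.981), the latter of which turned negative with the block (-0.001) and with scaling to library size alone (-0.19). For replicates 1 and 2 alone, Rela fell in CD18fl/fl BMDCs (log2 fold change -0.45, edgeR adjusted p = 0.0445) and was called in no direction in cKO BMDCs (-0.17, adjusted p = 0.762).

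Among the inhibitors, Nfkbia, which encodes IkB-alpha, the fast feedback inhibitor, gave the highest values. It amounted to 324, 356 and 214 CPM in unstimulated and 578, 594 and 777 CPM in LPS-treated CD18fl/fl BMDCs. In cKO BMDCs, 279, 285 and 167 CPM stood against 467, 456 and 683 CPM. The groups did not overlap in either genotype, and replicate 3 moved from the lowest unstimulated to the highest LPS-treated library. The log2 fold change was 1.13 (SE 0.30, edgeR adjusted p = 0.0835) in CD18fl/fl and 1.10 (SE 0.32, adjusted p = 0.109) in cKO BMDCs, and with the block 1.15 (adjusted p = 0.0536) and 1.09 (adjusted p = 0.0504), so that it stayed just outside the threshold. Without LPS-treated CD18fl/fl replicate 3, Nfkbia passed in that genotype (0.98, adjusted p = 0.0491), and for replicates 1 and 2 alone it was 0.78 (adjusted p = 0.00233) in CD18fl/fl and 0.60 (adjusted p = 0.0707) in cKO BMDCs.

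Nfkbib, which encodes IkB-beta, a slower acting relative, was increased in all 6 same-numbered pairs, by 2.59 to 3.49-fold in CD18fl/fl and by 2.60 to 3.83-fold in cKO BMDCs. Its levels were 67.8, 73.2 and 36.1 CPM without and 237, 247 and 93.8 CPM with LPS in CD18fl/fl BMDCs. In cKO BMDCs they were 71.7, 49.7 and 22.3 CPM and 187, 130 and 85.5 CPM. Replicate 3 was again lowest in each group, but its LPS-treated libraries exceeded all unstimulated ones. The log2 fold change was 1.71 (SE 0.46, edgeR adjusted p = 0.0873) and 1.43 (SE 0.46, adjusted p = 0.132), and with the block 1.65 (SE 0.22, adjusted p = 0.0101) in CD18fl/fl and 1.52 (SE 0.21, adjusted p = 0.0046) in cKO BMDCs. Leaving out LPS-treated CD18fl/fl replicate 3 also brought it past the threshold without the block (2.03, adjusted p = 0.0123).

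Tnfaip3 encodes a ubiquitin-editing enzyme that shuts off signaling above IKK. It was at 87.5, 97.1 and 28.8 CPM in unstimulated and at 198, 224 and 159 CPM in LPS-treated CD18fl/fl BMDCs, and at 51.9, 60.6 and 19.97 CPM and 180, 155 and 113 CPM in cKO BMDCs. No unstimulated library reached the lowest LPS-treated library of its genotype. With the block, the log2 fold change was 1.61 (SE 0.33, edgeR adjusted p = 0.0309) and 1.83 (SE 0.27, adjusted p = 0.00569). Without it, 1.45 (SE 0.46, adjusted p = 0.124) and 1.70 (SE 0.43, adjusted p = 0.0717) were obtained.

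Nfkbie, which encodes IkB-epsilon, had the smallest difference among the inhibitors. It was at 75.4, 75.3 and 52.7 CPM without and 124, 96.0 and 95.4 CPM with LPS in CD18fl/fl BMDCs, and at 65.9, 52.3 and 40.2 CPM and 84.3, 67.9 and 71.0 CPM in cKO BMDCs. The groups stood apart, but the log2 fold changes of 0.64 (SE 0.26, edgeR adjusted p = 0.193) and 0.45 (SE 0.26, adjusted p = 0.365) did not pass, nor did those with the block (0.65, adjusted p = 0.104, and 0.47, adjusted p = 0.137). For replicates 1 and 2 alone it rose in CD18fl/fl (0.54, edgeR adjusted p = 0.0212) and did not pass in cKO BMDCs (0.26, adjusted p = 0.481).

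After LPS, Nfkbiz was the member whose replicate 3 stood farthest from the others. It was at 11.04, 9.68 and 11.5 CPM in unstimulated CD18fl/fl BMDCs and at 13.5, 17.6 and 104 CPM after LPS, and at 9.22, 3.97 and 7.63 CPM and 12.2, 14.5 and 78.0 CPM in cKO BMDCs. The LPS-treated libraries of replicate 3 exceeded their unstimulated partners 8.97 and 10.1-fold, those of replicates 1 and 2 between 1.22 and 3.58-fold. Against replicates 1 and 2 of its own group, replicate 3 was 6.73-fold higher in LPS-treated CD18fl/fl and 5.84-fold higher in LPS-treated cKO BMDCs. The log2 fold changes of 2.08 (SE 0.77) and 2.33 (SE 0.79) were the largest of the 10 members and did not pass the edgeR test (adjusted p = 0.167 and 0.146), and with the block they were 1.41 (adjusted p = 0.154) and 1.83 (adjusted p = 0.0568). For replicates 1 and 2 alone they were 0.58 (edgeR adjusted p = 0.0526) and 0.92 (adjusted p = 0.203).

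**Figure D3:**
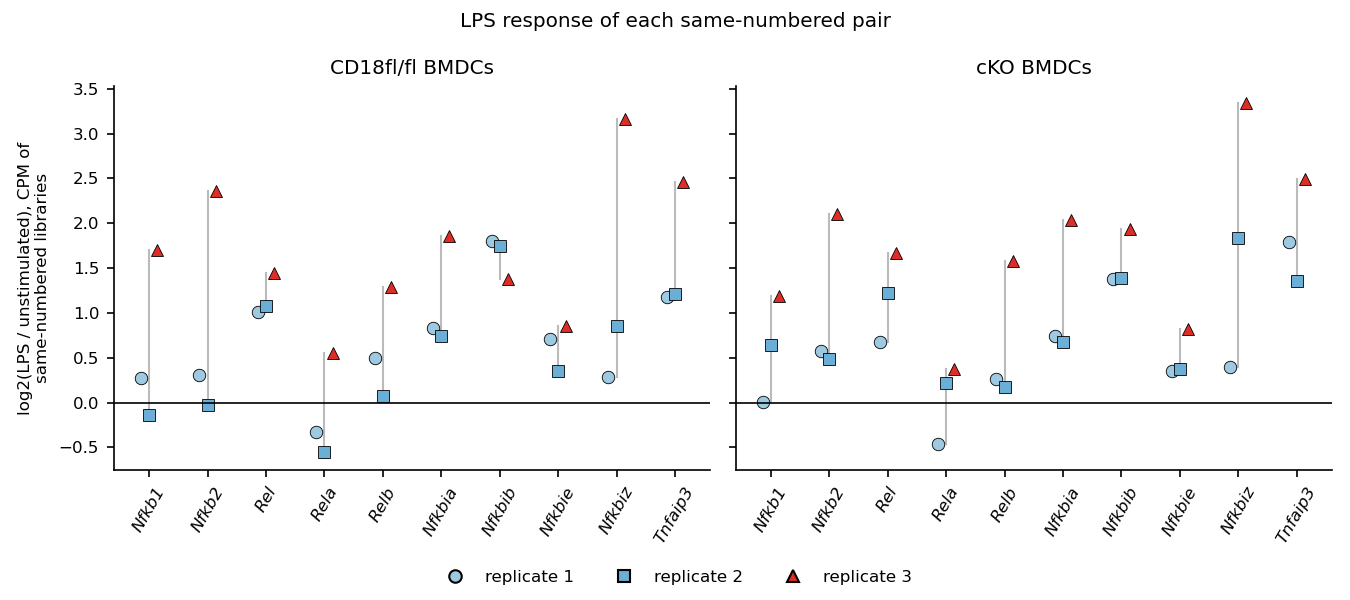
Log2 ratio of CPM in the LPS-treated over the unstimulated library of the same replicate number (y axis) for each member (x axis) in CD18fl/fl (left) and cKO BMDCs (right), with symbols and colours for the replicate number. Replicate 3 (red) lies above the other pairs for each member except Nfkbib in CD18fl/fl BMDCs, and is highest for Nfkbiz (8.97 and 10.1-fold).

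Among the same-numbered pairs, 7 of the 10 members (Rel, Relb and the 5 inhibitors) were higher with LPS in all 6 pairs, as were 18.4% of the genes that passed the filter. The test of whether the response differed between the genotypes (interaction over 12 libraries) called 0 of the 10 members, and 0% of all genes, in edgeR both without and with the block, with 0 members and 97 and 272 of 13752 genes at an unadjusted p under 0.05. DESeq2 called 0 members and 1 gene. The interaction log2 values were between -0.22 (Nfkbib, SE 0.69) and 0.32 (Nfkb2, SE 0.61) without the block, and between -0.12 (Nfkbie, SE 0.24) and 0.37 (Nfkbiz, SE 0.78) with it. With standard errors from 0.34 to 1.16 without the block, the comparison does not show that the responses were equal.

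The other question was whether loss of CD18 changed the members. In unstimulated BMDCs, 9 of the 10 members (all but Rel) had a lower fitted level in cKO than in CD18fl/fl BMDCs, as had 6783 of the 12876 genes tested. The median log2 fold change was -0.44 for the subunits and -0.31 for the inhibitors, beside -0.05 over all genes tested. The edgeR test without the block called 0 of the 10 (0 at an unadjusted p under 0.05) and 0% of all genes, of which 2159 were at an unadjusted p under 0.05. With the block, Rela and Tnfaip3 were lower in cKO BMDCs (2 of 10 members, against 8.16% of all genes called lower). Fitted with the block over all 12 libraries, neither passed (Rela -0.77, adjusted p = 0.07, and Tnfaip3 -0.67, adjusted p = 0.137, in edgeR), with 3.18% of all genes called lower. DESeq2 without a block called 0 members (1 at an unadjusted p under 0.05) and 1.18% of all genes as lower. Only Nfkbiz had groups that did not overlap (1 of 10 members, against 13.1% of all genes). Cells of all groups carry the floxed allele, so the comparison is one of Cre+ with Cre- mice.

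Rela was the subunit that edgeR called with the block. Its unstimulated cKO libraries (33.8, 38.7 and 25.7 CPM) each lay below the CD18fl/fl library of the same number (60.2, 73.7 and 35.5 CPM), although the highest cKO library exceeded CD18fl/fl replicate 3. The log2 fold change was -0.74 (SE 0.32, edgeR adjusted p = 0.308) without and -0.69 (SE 0.16, adjusted p = 0.0234) with the block, and it was -0.67 (adjusted p = 0.0301) with an offset for exon length beside the block. After LPS, the 3 cKO libraries (24.5 to 45.0 CPM) lay below the 3 CD18fl/fl libraries (48.0 to 52.2 CPM), and the value was -0.57 (SE 0.27, adjusted p = 0.567) without and -0.61 (SE 0.19, adjusted p = 0.0859) with the block.

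Tnfaip3 was the inhibitor that edgeR called with the block. In unstimulated BMDCs its cKO libraries had 51.9, 60.6 and 19.97 CPM and its CD18fl/fl libraries 87.5, 97.1 and 28.8 CPM, so that the groups overlapped through replicate 3 while each pair differed in the same direction. The log2 fold change was -0.64 (SE 0.57, edgeR adjusted p = 0.606) without and -0.60 (SE 0.14, adjusted p = 0.0256) with the block. With the exon length offset beside the block it was -0.40 (adjusted p = 0.0908), and for replicates 1 and 2 alone -0.66 (adjusted p = 0.0607), and it passed in neither. In the fit with the offset, Nfkbia was lower (-0.58, adjusted p = 0.0262) and Rel higher (0.55, adjusted p = 0.0386) in cKO BMDCs. After LPS, Tnfaip3 was at 180, 155 and 113 CPM in cKO and at 198, 224 and 159 CPM in CD18fl/fl BMDCs, with a log2 fold change of -0.40 (SE 0.27, adjusted p = 0.683) without and -0.41 (SE 0.15, adjusted p = 0.124) with the block.

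In LPS-treated BMDCs, 9 of the 10 members (all but Rel) had a lower fitted level in cKO BMDCs, as had 7073 of the 12441 genes tested. The median log2 fold change was -0.48 for the subunits and -0.40 for the inhibitors, beside -0.105 over all genes tested. The edgeR test called 0 of the 10 members and 0% of all genes without the block (0 members and 1212 genes at an unadjusted p under 0.05). With the block it called 0 members, 6 of which were at an unadjusted p under 0.05, as were 28.1% of all genes, and 3.16% of all genes as lower. DESeq2 without the block called 0 members and 0.233% of all genes as lower. Rela and Nfkbie had groups that did not overlap, with cKO lower (2 of 10 members, against 8.09% of all genes). Closest to the threshold with the block were Nfkb2 (-0.54, SE 0.14, edgeR adjusted p = 0.0535) and Nfkbie (-0.52, SE 0.14, adjusted p = 0.0612).

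**Figure D4:**
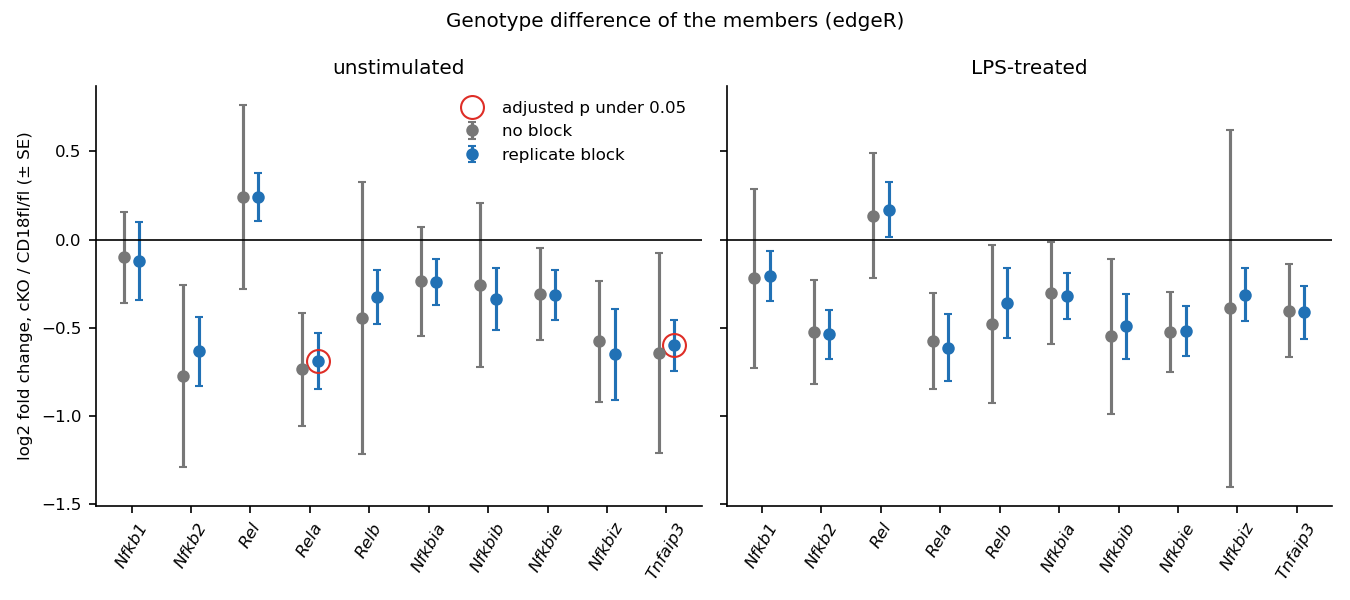
Log2 fold change of cKO over CD18fl/fl BMDCs (y axis, ± SE, edgeR) for each member in unstimulated (left) and LPS-treated (right) BMDCs, without (grey) and with (blue) the replicate block, where red circles mark an adjusted p under 0.05. Rela (-0.69) and Tnfaip3 (-0.60) are circled in unstimulated BMDCs, and Rel is the member above 0 in both panels (below 0 with scaling to library size alone, -0.16 and -0.11).

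Nfkb2 was at 78.8, 89.3 and 42.9 CPM in unstimulated cKO and 148, 176 and 48.1 CPM in CD18fl/fl BMDCs, a log2 fold change of -0.77 (SE 0.52, edgeR adjusted p = 0.489) without and -0.63 (SE 0.20, adjusted p = 0.0555) with the block. Replicates 1 and 2 carried most of this difference, and restricted to them Nfkb2 was lower (-0.89, edgeR adjusted p = 0.0343) together with Rela (-0.83, adjusted p = 0.0427), as were 2.67% of all genes. Across both states, 6 of the 10 members (Nfkb2, Rela, Nfkbia, Nfkbie, Nfkbiz and Tnfaip3) were lower in cKO than in CD18fl/fl BMDCs in all 6 same-numbered pairs, as were 16.1% of the genes that passed the filter. Rel was higher in cKO in 3 of 3 unstimulated pairs, by a log2 difference of 0.14 to 0.26, and in 2 of 3 LPS-treated pairs. Its fitted log2 fold change was 0.24 (SE 0.52, edgeR adjusted p = 0.856) in unstimulated and 0.14 (SE 0.35, adjusted p = 0.931) in LPS-treated BMDCs, and it changed sign with scaling to library size alone (-0.16 and -0.11). Such scaling moved the median of all genes to -0.44 in unstimulated and -0.37 in LPS-treated BMDCs, and with it and the block 8 and 7 members were called lower in cKO BMDCs, as were 30.1% and 16.5% of all genes. The TMM factors of the unstimulated libraries were 1.21 to 1.26 in CD18fl/fl and 0.940 to 1.07 in cKO BMDCs.

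The members were placed among other genes of the pathway, listed by hand by their role. Of 49 listed targets of NF-kB, 46 were tested in each LPS comparison, and without the block 12 rose and 0 fell in CD18fl/fl and 16 rose and 0 fell in cKO BMDCs (edgeR). With the block 29 rose and 1 fell in CD18fl/fl and 34 rose and 2 fell in cKO BMDCs. Of all genes tested, 2.06% rose and 1.83% fell in CD18fl/fl and 2.23% and 1.76% in cKO BMDCs without the block. In the blocked fit, 6.33% rose and 6.43% fell in CD18fl/fl and 10.2% and 9.93% in cKO BMDCs. The same shares apply to the LPS counts of the lists below. Targets that fell with the block were Plaur in both genotypes (-1.86 and -1.57) and Icosl in cKO BMDCs (-1.59, edgeR adjusted p = 0.0442). The median log2 fold change of the targets was 1.79 and 1.66 without the block, above that of the inhibitors. Il6, a cytokine gene, went from 5.16 ± 5.20 to 342 ± 35.3 CPM in CD18fl/fl (log2 fold change 6.06, edgeR adjusted p = 0.0162) and from 6.23 ± 0.440 to 564 ± 223 CPM in cKO BMDCs (6.47, adjusted p = 0.00885; SD, n = 3). Ptgs2, the inducible cyclooxygenase, rose by 6.52 on the log2 scale in CD18fl/fl and by 6.87 in cKO BMDCs (edgeR adjusted p = 0.0162 and 0.0115). Cd86, a costimulatory receptor, rose by 1.87 and 2.10 (edgeR adjusted p = 0.0164 and 0.0178), Cflar, an inhibitor of cell death, by 2.28 and 2.15 (adjusted p = 0.0162 and 0.0217), and Ebi3, a subunit of interleukins, by 2.22 and 1.77 (adjusted p = 0.0138 and 0.0363).

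Of 26 adaptors and ligases between receptor and IKK, 1 rose and 0 fell without the block in either genotype, namely Rnf31, a ligase for linear ubiquitin (log2 fold change 1.45 in CD18fl/fl, edgeR adjusted p = 0.0222, and 1.24 in cKO BMDCs, adjusted p = 0.045). With the block, 5 rose and 1 fell in CD18fl/fl and 6 rose and 2 fell in cKO BMDCs, among them the adaptors Traf1 (2.23 and 1.96) and Traf2 (1.77 and 1.37), which rose, and Card9 (-1.30 and -1.59), which fell. Among 8 genes of the IKK kinases and their partners, 0 passed without the block in edgeR, with 4 in CD18fl/fl and 4 in cKO BMDCs at an unadjusted p under 0.05. Of all genes, 23.8% and 21.2% were at such a p. In DESeq2 without the block, 4 and 2 of the 8 rose, beside 8.49% and 6.75% of all genes. With the block in edgeR, the same 4 rose and 0 fell in each genotype. They were Tank (1.06 and 1.15), Tbk1 (0.99 and 0.88), Map3k8 (1.78 and 1.89) and Map3k14 (0.91 and 1.13). Of 16 other negative regulators tested, 2 rose and 0 fell in each genotype without the block. These were Tnip3, a partner of the Tnfaip3 protein, which went from 120 ± 39.6 to 679 ± 220 CPM in CD18fl/fl and from 332 ± 30.3 to 1510.1 ± 238 CPM in cKO BMDCs (SD, n = 3), and Usp18, which removes ISG15 from proteins (log2 fold changes 3.51 and 2.98). In the blocked fit, 2 rose and 0 fell in CD18fl/fl and 4 rose and 2 fell in cKO BMDCs. Those that fell were Tnfaip8l2 (-1.09, edgeR adjusted p = 0.00748) and Itch (-0.95, adjusted p = 0.0134). Both had the same sign in CD18fl/fl BMDCs and did not pass (-1.025, edgeR adjusted p = 0.0699, and -0.675, adjusted p = 0.091). The blocked interaction called 0 of the 16. Of 8 further IkB relatives and co-regulators, Pdlim2, a nuclear ligase for Rela, fell in CD18fl/fl BMDCs (-1.37, edgeR adjusted p = 0.0317) and 0 were called in cKO BMDCs without the block (3 at an unadjusted p under 0.05, and 1 rose and 1 fell in DESeq2). With the block, Pdlim2 fell in both genotypes (-1.38 and -1.56) and Bcl3, a nuclear IkB relative, rose in cKO BMDCs (1.35, edgeR adjusted p = 0.0136). In CD18fl/fl BMDCs, Bcl3 had a value of the same sign that did not pass (0.98, edgeR adjusted p = 0.0976). The interaction with the block called 0 of these 8 genes. Between the genotypes, 0 genes of these 5 lists passed without the block in edgeR. At an unadjusted p under 0.05 were 20 in unstimulated and 15 in LPS-treated BMDCs. DESeq2 without the block called 7 higher and 0 lower in unstimulated cKO BMDCs, beside 5.55% of all genes higher and 1.18% lower. In LPS-treated cKO BMDCs it called 6 higher and 1 lower, beside 2.28% of all genes higher and 0.233% lower. With the block in edgeR, the targets counted 9 higher and 3 lower of 44 in unstimulated BMDCs. In LPS-treated BMDCs they counted 6 higher and 5 lower of 47. The adaptors and ligases counted 1 higher and 5 lower, and 0 higher and 3 lower, of 26. The IKK kinases counted 1 higher and 2 lower, and 1 higher and 0 lower, of 8, the negative regulators 2 higher and 1 lower of 16 in both states, and the IkB relatives and co-regulators 1 higher and 0 lower, and 0 of either, of 8. Of all genes, 12.1% were higher and 8.16% lower in unstimulated, and 6.98% higher and 3.16% lower in LPS-treated BMDCs.

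How alike the members were over the 12 libraries was described by the root mean square difference of their log2 CPM after each gene had been centred on its own mean. The most alike members were Nfkb2 and Nfkbia (0.32), followed by Nfkbib and Tnfaip3 (0.36), and the least alike were Relb and Nfkbiz (1.65). Among all 13752 genes, Rela was nearest to Shisa5 (0.09), Sin3a (0.13) and Ncoa2 (0.17), against a median distance of 0.83 to all genes. Nfkbie was nearest to Kdm5a (0.14), Synj1 and Dnajc10 (both 0.14), Nfkb2 to Uba7 (0.16), Atp10d (0.28) and Castor2 (0.30), and Nfkbia to Tnfrsf11a (0.17), Tor1aip2 and Rabgef1 (both 0.19). The genes nearest to Rel were Arl5c, Skil and Tbc1d15 (0.20 to 0.21), those nearest to Relb Cttnbp2nl, Cacnb3 and Nuak2 (0.21 to 0.26), and those nearest to Nfkb1 Cd82, Dgka and Lacc1 (0.25 to 0.27). Nfkbib was nearest to Specc1l, Cblb and Dnajb2 (0.21 to 0.23) and Tnfaip3 to Ly75, Ankrd33b and Tbc1d17 (0.24 to 0.26). Nfkbiz had no close neighbour, with Slco3a1 (0.40), Rbbp8 (0.40) and Stat5a (0.47) as the nearest genes and a median of 1.43. No member was among the 3 nearest genes of another member. The distances share libraries and depth and carry no test.

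The members lie on 8 chromosomes in GRCm39, the build of the gene coordinates in the files. The genes of the subunits are at chr3:135290416-135397308 (Nfkb1, ENSMUSG00000028163), chr19:46292759-46300824 (Nfkb2, ENSMUSG00000025225), chr11:23686847-23720970 (Rel, ENSMUSG00000020275), chr19:5687511-5698158 (Rela, ENSMUSG00000024927) and chr7:19340142-19363363 (Relb, ENSMUSG00000002983). Those of the inhibitors are at chr12:55536195-55539432 (Nfkbia, ENSMUSG00000021025), chr7:28457676-28466937 (Nfkbib, ENSMUSG00000030595), chr17:45866629-45874095 (Nfkbie, ENSMUSG00000023947), chr16:55631738-55659262 (Nfkbiz, ENSMUSG00000035356) and chr10:18876658-18891405 (Tnfaip3, ENSMUSG00000019850). All are annotated as protein-coding. Their exon lengths ranged from 1578 bases (Nfkbia) to 7466 bases (Rel), and at least 96.4% of the reads of each member in each library mapped to a single position.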

How the data were processed

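According to the labels and the study's methods, poly(A) RNA of MHCII-positive BMDCs was sequenced as single-end reads, and reads were trimmed, aligned and counted in CLC Genomics Workbench. The authors deposited raw read counts for each gene (total, unique, exon and intron reads), 1 library per table and without normalization. The labels' processing notes name GRCm38 and the methods GRCm39. The gene coordinates in the files are those of GRCm39. Total gene reads were used.

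Counts were filtered (minimum count 10), scaled by TMM and tested by quasi-likelihood in edgeR 4.0.16 (R 4.3.3), with Benjamini-Hochberg adjustment over all genes and a threshold of 0.05. Comparisons used their 6 libraries, and the interaction all 12. The standard error is the log2 fold change divided by the square root of F. Single values of 3 against 3 libraries were compared by an exact permutation test (two-sided, smallest p = 0.1). Exon levels were divided by exon length and TMM-scaled depth.

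Replicate numbers come from the labels, and the sources used here do not state what they share. Deviations from the group means correlated between 0.271 and 0.73 in all same-numbered pairs across 13752 genes, so the numbers were treated as pairing the libraries, and the block was fitted beside each result. The highest of these correlations in each comparison was that of replicate 3, and replicate 1 also correlated with replicate 2 of the other group (0.164 to 0.355), in part as highly as the same-numbered pairs. The closest of 66 pairs of libraries still differed beyond counting error (chi-square per degree of freedom 42.3). Alternatives were DESeq2 1.42.0, the block, RLE and library size scaling, an exon length offset (lowess), other filters, unique reads, all 12 libraries, and each library left out. Replicates 1 and 2 alone were added after replicate 3 was seen to stand apart.

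The members and lists were chosen with earlier results of these data known. The genes named are the members, Itgb2, up to 3 called genes per list, direction and LPS comparison with the smallest adjusted p, of which the text gives a part, and the 3 genes nearest to each member. Promoter sequences are those of RefSeq (GRCm38.p6), matched by sequence to GRCm39. The statistical code was tested on simulated counts.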

Additional observations from a re-analysis of the deposited data

How the results depend on the processing

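The number of members called changed with the replicate block, the tool, the scaling and the libraries in the fit. In place of 0 members, LPS changed 3 in CD18fl/fl and 3 in cKO BMDCs with the replicate block, 3 and 3 with the block and a length offset, 4 and 4 in DESeq2, 6 and 6 in DESeq2 with the block, 1 and 3 with library size scaling and the block, 1 and 2 with all 12 libraries in the fit, 5 and 6 with these and the block, and 6 and 3 for replicates 1 and 2 alone. The share of all genes called in either direction moved as well, from 3.89% and 3.99% without the block to 12.8% and 20.2% with it, 14.3% and 21.3% with the offset, 15.5% and 13.2% in DESeq2, 25.7% and 27.9% in DESeq2 with the block, 12.7% and 21.7% with library size scaling and the block, 7.77% and 7.15% with all 12 libraries, 24.5% and 21.9% with these and the block, and 47.5% and 15.9% for replicates 1 and 2 alone. Without a filter on low counts, 1 member was called in cKO BMDCs, where 4.2% of all genes were. Between the genotypes in unstimulated BMDCs, 2 members were called with the block, 3 with the block and length offset, 3 in DESeq2 with the block, 8 with library size scaling and the block, and 2 for replicates 1 and 2 alone, beside 20.2%, 13.2%, 25.7%, 35.6% and 10.6% of all genes in that order. With the block over all 12 libraries, 0 members were called (3 at an unadjusted p under 0.05), and 8.11% of all genes. In LPS-treated BMDCs, 3 were called in DESeq2 with the block and 7 with library size scaling and the block, beside 16% and 21.2% of all genes. The cause of these shifts was not tested. When single libraries were left out, the count ranged from 0 to 2 for LPS in CD18fl/fl BMDCs (2 without LPS-treated replicate 3) and from 0 to 0 in the other comparisons. The stricter form of the kB motif was held by 2 members in place of 5.

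Among the LPS responses, Rela in cKO BMDCs (0.02) turned to -0.001 with the block, -0.185 with library size scaling, -0.214 with both, and -0.168 for replicates 1 and 2 alone. Among the genotype differences, Rel turned in unstimulated BMDCs to -0.163 with library size scaling and -0.150 with the block beside it, and in LPS-treated BMDCs to -0.107 and -0.082, and Nfkb1 in unstimulated BMDCs to 0.035 with the block and length offset. Library size scaling moved the median of all genes to -0.32 and -0.23 in the LPS comparisons. The interaction values that changed sign under these settings were for Relb -0.032 in DESeq2, -0.031 with RLE factors, -0.007 with a minimum count of 50 and -0.128 for replicates 1 and 2 alone, and for Nfkbia -0.049 in DESeq2, -0.045 in DESeq2 with the block, -0.049 with RLE factors, -0.032 with a minimum count of 50 and -0.133 for replicates 1 and 2 alone. For Nfkb1 they were 0.049 with the block, 0.133 with library size scaling and the block, and 0.148 for replicates 1 and 2 alone, and for Rel 0.025 with the block, 0.056 with library size scaling and 0.091 with both.

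Leaving out each library in turn also changed signs. For LPS, the log2 fold change ranged from -0.417 to 0.069 for Rela and from -0.065 to 0.767 for Relb in CD18fl/fl BMDCs, and from -0.187 to 0.226 for Rela and from -0.046 to 0.673 for Relb in cKO BMDCs. For the genotype in unstimulated BMDCs, it ranged from -0.235 to 0.082 for Nfkb1, from -0.105 to 0.603 for Rel, from -0.915 to 0.002 for Relb and from -0.652 to 0.102 for Nfkbib. In LPS-treated BMDCs, it ranged from -0.763 to 0.327 for Nfkb1, from -0.153 to 0.333 for Rel and from -1.822 to 1.159 for Nfkbiz. The interaction ranged from -0.558 to 0.417 for Nfkb1, from -0.092 to 0.634 for Nfkb2, from -0.444 to 0.306 for Rel, from -0.098 to 0.431 for Rela, from -0.437 to 0.397 for Relb, from -0.223 to 0.137 for Nfkbia, from -0.668 to 0.192 for Nfkbib, from -0.334 to 0.054 for Nfkbie, from -1.131 to 1.735 for Nfkbiz and from -0.077 to 0.611 for Tnfaip3. The fewest reads behind a value were the 119 of Nfkbiz in an unstimulated cKO library.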
